A study of Bos taurus with 18 samples.

Results

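The non-exosomal (FC, free-circulating) RNA of plasma was compared between about 30 and 25 months of age in Japanese Black steers, castrated males of a Japanese beef breed, near the end of their fattening. The comparison used the 6 FC libraries at these ages, of 18 small RNA libraries in the series, and it was defined by the labels of the libraries and not by any measured value. The same 3 steers were bled from the jugular vein at about 20, 25 and 30 months, and each plasma sample gave 1 exosomal (EX) and 1 FC library with a kit that separates RNA inside exosomes from the RNA left outside them. The steers had no treatment that differed between the groups, so age, time on the fattening diet and the date of bleeding cannot be told apart. Of 1071 miRNAs in the table, 358 had more than 5 counts per 1000000 miRNA counts of the library (CPM) in at least 3 of the 9 FC libraries and were tested. They comprise 338 known miRNAs and 20 of the 41 candidates found by the authors, which are called candidate-miR with their number.

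A microRNA is an RNA of about the length of these reads that guides a silencing complex to messenger RNAs, mainly through its seed, bases 2 to 8. miRNAs with the same seed form a family, and many families are encoded by several neighbouring genes. Outside vesicles, plasma miRNAs travel mostly bound to proteins such as Argonaute or to lipoproteins, and blood cells, liver and vessel wall are their main known sources. Some miRNAs are made almost only in one cell type, which makes them a rough readout of where plasma RNA comes from. In plasma, fewer cells of a type, less release per cell and faster clearance cannot be told apart.

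The mature sequences below are those the results turn on, with the seed in capitals. The first group holds the 3 miRNAs with the smallest FDR, all higher at 30 months, and no other kept miRNA has their seeds.
candidate-miR-40: gUCCGGUUguucuucucu
candidate-miR-38: aUAAUGAAcaauaaaacu
bta-miR-11987: cGAGGAAUcucugguggaggu
The second group is the miR-25/92 family, in which 4 of 5 members fell. In the table *bta-miR-363* starts 1 base later than the others, so the family seed lies at its bases 1 to 7.
bta-miR-25: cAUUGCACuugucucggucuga
bta-miR-32: uAUUGCACaugacuaaguugcau
bta-miR-92a: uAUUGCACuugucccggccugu
bta-miR-92b: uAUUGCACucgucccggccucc
bta-miR-363: aUUGCACGguauccaucugcg
The third group shows 3 families whose members share a seed but were not all called, miR-30, miR-29 and the pair of miR-221 and miR-222. *bta-miR-29a*, counted with its family below, has the family seed from its base 3 on and so another seed at bases 2 to 8.
bta-miR-30b-5p: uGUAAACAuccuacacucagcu
bta-miR-30c: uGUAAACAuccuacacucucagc
bta-miR-30a-5p: uGUAAACAuccucgacuggaagcu
bta-miR-30d: uGUAAACAuccccgacuggaagcu
bta-miR-29b: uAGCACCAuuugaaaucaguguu
bta-miR-29c: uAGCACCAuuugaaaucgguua
bta-miR-29d-3p: uAGCACCAuuugaaaucgauua
bta-miR-221: aGCUACAUugucugcuggguuu
bta-miR-222: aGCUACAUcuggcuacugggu
The fourth group gives the cell-type miRNAs with the clearest changes, from lymphocytes, white blood cells in general, liver, gut and epithelium.
bta-miR-150: uCUCCCAAcccuuguaccagugu
bta-miR-342: uCUCACACagaaaucgcacccaucu
bta-miR-142-3p: aGUGUUUCcuacuuuauggaug
bta-miR-885: uCCAUUACacuacccugccucu
bta-miR-194: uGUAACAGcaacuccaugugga
bta-miR-141: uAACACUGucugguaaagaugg

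The FC libraries held 6958135 to 11065929 miRNA counts at 25 months and 3615234 to 4871908 at 30 months, so 3 counts correspond to 0.27 to 0.43 CPM and to 0.62 to 0.83 CPM. All libraries at 30 months were shallower than those at 25 months, so age and depth cannot be told apart. The low counts at 30 months had gaps. Between 10.1% and 12% of the detected miRNAs had 1 to 10 counts there, against 21.0% to 29.1% at 25 months, and the most common whole count above 3 was 17, 31 and 19 in steers 1, 2 and 3, against 5, 4 and 4. This count stands for 3.49, 8.57 and 5.0 CPM and is called a step below, since at 30 months a value of a few steps or less was not resolved. For miRNAs at that level a log2 fold change, where printed, is a fitted value and not a measured size. The 25 months library of steer 3 stood apart from the other 2 of its age. The chi-square per degree of freedom between it and them was 5610 and 5303, against 1198 between the others, and its TMM factor was 0.734. The calls that held without it are named below. Replicates were separate animals, and the same animals were sampled at each age.

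Between 25 and 30 months, 56 miRNAs changed in FC (15.6% of the 358 tested), 20 higher (5.59%) and 36 lower (10.1%) at 30 months. A change was called at FDR < 0.05 and |log2 fold change| > 1 by the quasi-likelihood test of edgeR with steer as a block, and 134 miRNAs had an unadjusted p under 0.05. All 56 moved the same way in the 3 steers, which a call over these same steers favours, so it is no separate support. Groups that did not overlap, given below for single miRNAs, are favoured likewise. They also occur among uncalled miRNAs such as *bta-miR-451*, and their share of all 358 was not counted. The median log2 fold change of all miRNAs tested was −0.20 with TMM scaling, −0.16 with the size factors of DESeq2 and −0.08 with library totals. The lower miRNAs were the more abundant ones, with a median of 390 CPM at 25 months, against 41.6 CPM for the higher and 43.4 CPM for the uncalled ones. The median length was 22 bases in each set. The median GC content was 47.7% in the higher, 44.5% in the lower and 45.8% in the uncalled miRNAs. Over all 358 miRNAs, GC content had a weak positive correlation with the log2 fold change (Spearman 0.22, Pearson 0.16). Of the 36 lower miRNAs, 9 had a mean under 5 steps at 30 months, and none of the 20 higher did.

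**Figure D1:**
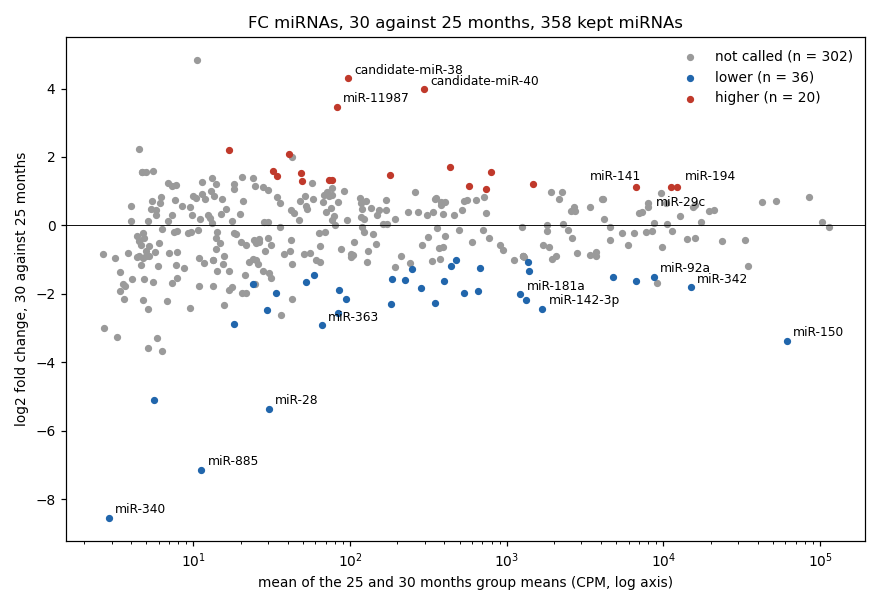
Log2 fold change at 30 against 25 months (y axis) against the mean of the 2 group means in CPM (x axis, log scale), for 358 miRNAs in FC; red and blue points are the 20 higher and the 36 lower miRNAs. *bta-miR-150* is the most abundant called miRNA, and the lowest points, such as *bta-miR-340* and *bta-miR-885*, have few or no counts at 30 months, so that their fitted change is not a measured size.

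The call depended on single libraries. Without the 25 months library of steer 3 there were 20 calls, with 4 higher and 16 lower. Among them were 19 of the 56, namely *candidate-miR-38*, *candidate-miR-40*, *bta-miR-11987* and *bta-miR-29c* of the higher ones, and *bta-miR-150*, *bta-miR-142-3p*, *bta-miR-32*, *bta-miR-92a*, *bta-miR-92b*, *bta-miR-363*, *bta-miR-181a*, *bta-miR-181b*, *bta-miR-30c*, *bta-miR-222*, *bta-miR-139*, *bta-miR-31*, *bta-miR-885*, *bta-miR-2285bf* and *bta-let-7g* of the lower ones. Without the 30 months library of steer 3 or 2 there were 9 and 23 calls, and without the 25 months library of steer 1 there were 29. Called whichever of the 6 libraries was left out were 6 miRNAs, *candidate-miR-38*, *candidate-miR-40*, *bta-miR-11987*, *bta-miR-2285bf*, *bta-miR-363* and *bta-miR-885*. When the 30 months counts were expressed in steps and the earlier libraries were thinned to the same totals, 61 miRNAs were called, including 46 of the 56.

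**Figure D2:**
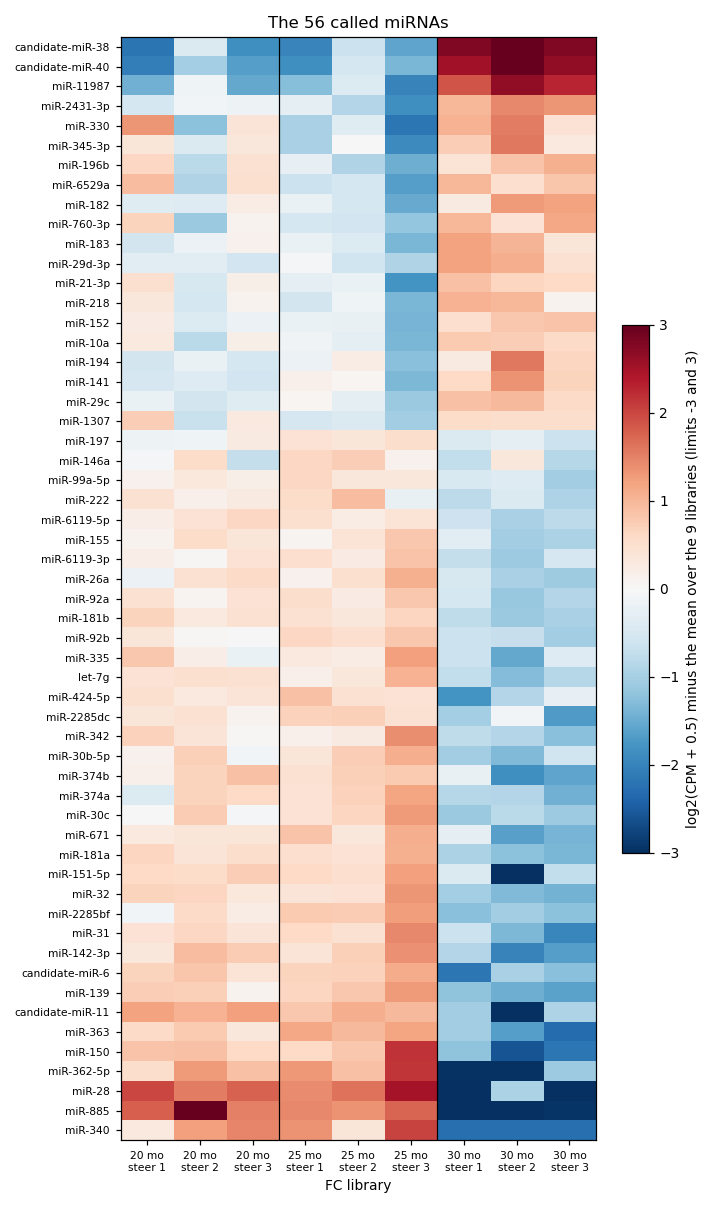
The 56 called miRNAs (rows, ordered by log2 fold change) in the 9 FC libraries (columns, 3 steers at each of 3 ages); colour is log2(CPM + 0.5) minus the mean of the row, limited to −3 and 3. The 3 libraries at 30 months differ in colour from the 6 earlier ones in most rows, and the 25 months library of steer 3 is the bluest of the earlier ones in most of the 20 upper rows and the reddest in many of the 36 lower rows.

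The 3 miRNAs with the smallest FDR were scarce at 25 months. *candidate-miR-40* was at 20.8, 52.0 and 28.6 CPM in steers 1, 2 and 3 at 25 months and at 431, 761 and 481 CPM at 30 months (log2 fold change 3.98, SE 0.28, FDR 0.000111). *candidate-miR-38* was at 5.69, 15.2 and 7.68 CPM, and then at 169, 219 and 167 CPM (log2 fold change 4.30, SE 0.45, FDR 0.00124). *bta-miR-11987* was at 12.1, 22.3 and 7.05 CPM, and then at 112, 192 and 148 CPM (log2 fold change 3.47, SE 0.39, FDR 0.00133). In each of them the groups were far apart, the 30 months values averaged at least 28 steps, and the 20 months values, from 4.88 to 36.7 CPM, lay close to those at 25 months. Nothing is known here of their targets or tissue. *candidate-miR-38* and *candidate-miR-40* are 18 bases long, and 6 of the 358 miRNAs were that short or shorter. Among the other 4, *candidate-miR-24* was at 0 to 1.58 CPM at 25 months and at 8.94 to 26.5 CPM at 30 months, and was not called (FDR 0.0613). *bta-miR-9-3p*, *bta-miR-331-5p* and *candidate-miR-12* were not called either, with log2 fold changes of −2.19, −0.41 and −0.58. Of the 20 candidates kept, 2 rose and 2 fell, a share near the 15.6% of all miRNAs, and of the 12 kept miRNAs numbered from miR-11971 to miR-12064, *bta-miR-11987* alone was called.

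miRNAs of lymphocytes were lower at 30 months, all 3 of the list, against 10.1% of all miRNAs. *bta-miR-150*, which marks mature B and T cells, was at 65415, 74960 and 194329 CPM at 25 months and at 18750, 7188 and 9629 CPM at 30 months (log2 fold change −3.38, SE 0.62, FDR 0.0136). *bta-miR-342*, also abundant in lymphocytes, was at 15275, 16601 and 36498 CPM, and then at 8176, 7463 and 5759 CPM (log2 fold change −1.81, SE 0.49, FDR 0.0353). *bta-miR-155*, induced on activation of lymphocytes and macrophages, was at 1487, 1851 and 2461 CPM, and then at 1109, 684 and 726 CPM (log2 fold change −1.33, SE 0.38, FDR 0.0419). Every 30 months value of the 3 miRNAs lay below every 25 months value, and the highest 25 months value was that of steer 3 in each. Together they made up 8.22% to 23.3% of the counts at 25 months and 1.53% to 2.80% at 30 months. They held 8.11% to 10.2% at 20 months. Without the 25 months library of steer 3, *bta-miR-150* was called (log2 fold change −2.47, FDR 0.0227), *bta-miR-342* had an FDR of 0.0317 at a log2 fold change of −0.97, and *bta-miR-155* was not called (−0.87, FDR 0.142). Without the 30 months library of steer 3 none of the 3 was called (median −1.38), and with the 6 libraries of the 2 ages alone 1 was.

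The other white blood cell miRNAs had 2 of 5 members called, both lower, against 10.1% of all miRNAs. *bta-miR-142-3p*, made in all blood cell lineages, was at 1989, 2509 and 3939 CPM at 25 months and at 826, 381 and 486 CPM at 30 months (log2 fold change −2.44, SE 0.47, FDR 0.0153). *bta-miR-142-5p*, the other arm of the same hairpin, had a log2 fold change of −1.20 (SE 0.38, FDR 0.0558). *bta-miR-223*, the main miRNA of neutrophils and monocytes, was at 37101, 47324 and 13252 CPM, and then at 59516, 49492 and 48799 CPM (log2 fold change 0.67, SE 0.39, FDR 0.243). The values of *bta-miR-223* were higher at 30 months in each steer, where those of the lymphocyte miRNAs were lower. *bta-miR-146a*, a brake on inflammatory signalling, was at 1884, 2035 and 1344 CPM, and then at 734, 1538 and 674 CPM (log2 fold change −1.07, SE 0.29, FDR 0.0346), so its groups overlapped. *bta-miR-146b*, with the same seed, had a log2 fold change of 0.01 (FDR 0.973). The 5 miRNAs summed to 7.74% to 8.94% of the counts at 25 months and to 7.02% to 8.73% at 30 months. Without the 25 months library of steer 3, *bta-miR-142-3p* alone of the 5 was called (log2 fold change −1.90, FDR 0.0486). Without the 30 months library of steer 3 none of the 5 was called (median −0.89).

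None of the 3 red cell miRNAs was called, although *bta-miR-451* was just outside the threshold. *bta-miR-451*, which matures without Dicer and is the main miRNA of red cells, was at 20781, 11886 and 8394 CPM at 25 months and at 5717, 3757 and 4070 CPM at 30 months (log2 fold change −1.68, SE 0.52, FDR 0.0516). *bta-miR-486*, also a red cell miRNA, was at 25522, 13194 and 10345 CPM, and then at 28415, 17560 and 23023 CPM (log2 fold change 0.41, FDR 0.552). *bta-miR-144*, from the same gene cluster as miR-451 in mammals, had a log2 fold change of −0.56 (FDR 0.461). The groups of *bta-miR-451* did not overlap, while those of *bta-miR-486* did. *bta-miR-451* was called lower by DESeq2, limma-voom and the likelihood ratio test, and also without a filter, at a mean of 50 CPM, with the 6 libraries alone, without the steer block, after thinning and in steps, but not in any fit without 1 library or steer. The ratio of *bta-miR-451* to *bta-miR-23a*, a common index of red cell lysis in plasma, was 1.46, 0.918 and 1.05 at 25 months and 0.759, 0.423 and 0.543 at 30 months. In the 20 months libraries it ranged from 0.289 to 1.62. The part of lysis in the changes of other miRNAs was not tested.

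Of the 2 hepatocyte miRNAs 1 was called, lower (10.1% of all miRNAs). *bta-miR-122*, by far the main miRNA of hepatocytes, was at 24776, 75377 and 18934 CPM at 25 months and at 23010, 74438 and 97366 CPM at 30 months (log2 fold change 0.72, SE 0.46, FDR 0.287). Steers 1 and 2 differed little between the ages, and only steer 3 was higher at 30 months. *bta-miR-885*, also enriched in liver, had 138 to 287 counts per library at 25 months, or 21.2, 19.8 and 25.9 CPM. At 30 months it had 0, 0 and 2 counts, which is far below a step (FDR 0.00673). No fold is given for it, since the 30 months values are not resolved. It was at 22.2 to 66.6 CPM at 20 months. In steps it was still called, and in EX it was at 0, 0 and 70.2 CPM at 30 months.

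Of the 3 kept miRNAs shared by gut, liver and kidney, 1 was called, higher (5.59% of all miRNAs), and the other 2 were not. *bta-miR-194*, of gut, liver and kidney epithelium, was at 7837, 10494 and 3767 CPM at 25 months and at 10799, 26514 and 13897 CPM at 30 months (log2 fold change 1.11, SE 0.26, FDR 0.0261). *bta-miR-192*, encoded beside a miR-194 gene, was at 75045, 75617 and 30131 CPM, and then at 92619, 123869 and 111051 CPM (log2 fold change 0.84, SE 0.27, FDR 0.0593). *bta-miR-215*, beside the other miR-194 gene and with the seed of miR-192, had a log2 fold change of 0.44 (FDR 0.251). The 25 months library of steer 3 was the lowest of the 6 in all 3 of them. The 5 listed miRNAs summed to 4.26% to 10.8% of the counts at 25 months and to 12.7% to 17.6% at 30 months, against 6.95% to 8.29% at 20 months. The log2 fold change of *bta-miR-194* was 0.94 (FDR 0.0652) without that library. It was not called either without the steer block, with the 6 libraries of the 2 ages alone, without the 25 months library of steer 2, or without the 30 months library of steer 2 or 3.

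The epithelial list had 3 of 9 kept members called, all higher, against 5.59% of all miRNAs. *bta-miR-141*, of the miR-200 family that holds cells in the epithelial state, was at 5398, 5106 and 1910 CPM at 25 months and at 7340, 12345 and 7807 CPM at 30 months (log2 fold change 1.11, SE 0.27, FDR 0.0275). *bta-miR-182* was at 32.2, 25.7 and 12.6 CPM, and then at 44.5, 91.0 and 86.5 CPM (log2 fold change 1.54, SE 0.44, FDR 0.0419). *bta-miR-183*, its cluster neighbour, was at 23.5, 20.1 and 10.2 CPM, and then at 62.6, 55.0 and 35.0 CPM (log2 fold change 1.43, SE 0.43, FDR 0.0489). In these 3 miRNAs the ages did not overlap, which the call itself makes likely. The other miR-200 members, *bta-miR-200a*, *-200b*, *-200c* and *-429*, had log2 fold changes of 0.97, 0.83, 0.73 and 0.75, and FDR from 0.0353 to 0.0950. *bta-miR-205* and *candidate-miR-30*, a bovine miR-203a, mark stratified epithelium such as skin and were not called (log2 fold changes −0.57 and −0.15). No member of the list was called without the 25 months library of steer 3, and the list median was then 0.62 in place of 0.83. None was called either without the 25 months library of steer 2, without the 30 months library of steer 2 or 3, or with the 6 libraries of the 2 ages alone. With library totals, with the CPM > 1 filter, without a filter and in finer steps 1 member was called. *bta-miR-183* was not called in steps.

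**Figure D3:**
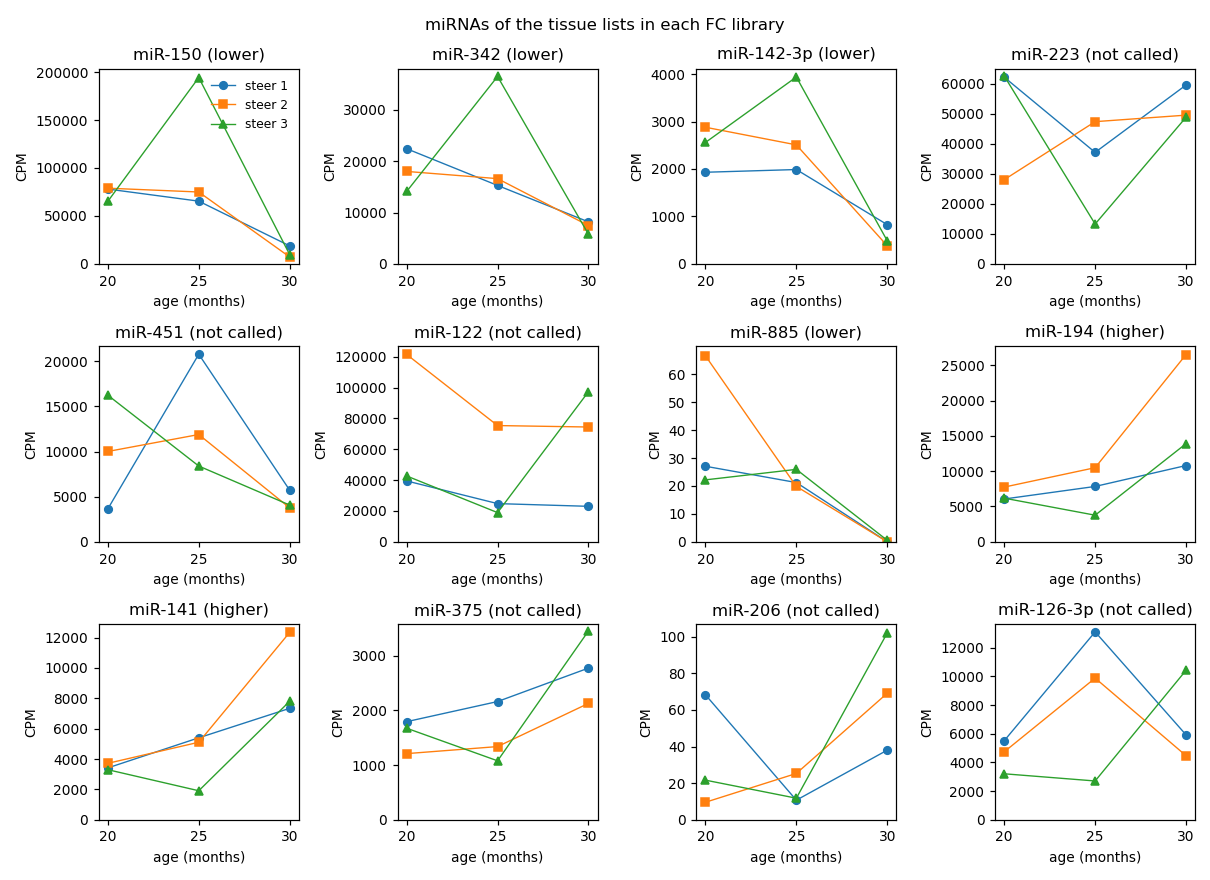
CPM (y axes, from 0) of 12 miRNAs of the tissue lists in the 9 FC libraries by age in months (x axes), with 1 line per steer. *bta-miR-150*, *-342* and *-142-3p* end below 25 months in each steer, *bta-miR-885* ends near 0, and *bta-miR-194* and *-141* end above 25 months; the 25 months value of steer 3 is the highest for *bta-miR-150* and *-342* and the lowest for *bta-miR-223*, *-194* and *-141*.

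The remaining source lists had no call in either direction, against 15.6% of all miRNAs, but for striated muscle, neural tissue, and lipid and energy metabolism this depended on the fit. The 5 kept of 8 striated muscle miRNAs had a median log2 fold change of 0.86. Among them *bta-miR-206*, of skeletal muscle, was at 10.7, 25.3 and 11.8 CPM at 25 months and at 38.04, 69.2 and 102 CPM at 30 months (log2 fold change 2.01, SE 0.75, FDR 0.0845). *bta-miR-1* had a log2 fold change of 0.86 (FDR 0.190), *bta-miR-208b* 1.06 (FDR 0.327), *bta-miR-499* 0.16 and *bta-miR-133a* −0.18. The muscle miRNAs together made up 0.0117% to 0.0196% of the counts at 25 months and 0.0199% to 0.0342% at 30 months. *bta-miR-206* was at 68.3, 9.55 and 21.6 CPM at 20 months, so its values differed widely between steers. It was called higher by DESeq2, limma-voom and the likelihood ratio test, and also without a filter, with the 6 libraries alone, without steer 2 and in steps.

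*bta-miR-375*, of pancreatic islets and other endocrine and gut cells, was at 2161, 1338 and 1078 CPM at 25 months and at 2773, 2128 and 3453 CPM at 30 months (log2 fold change 0.78, SE 0.23, FDR 0.0489), below the size required for a call. *bta-miR-7*, of the same cells, had a log2 fold change of 0.66 (FDR 0.116). In the vessel wall list, *bta-miR-126-3p*, of endothelium, was at 13103, 9879 and 2704 CPM, and then at 5920, 4466 and 10427 CPM, so steers 1 and 2 were lower and steer 3 higher at 30 months. *bta-miR-126-5p* and *bta-miR-143* had log2 fold changes of 0.07 and 0.27, and *bta-miR-145*, of smooth muscle, −0.91 (FDR 0.0564). The median of this list was −0.06, and −0.61 without the 25 months library of steer 3. The 5 mesenchymal miRNAs had log2 fold changes from −0.80 for *bta-miR-199a-5p* to 0.69 for *bta-miR-199c*, with *bta-miR-214* at −0.64, *bta-miR-199a-3p* at 0.54 and *bta-miR-199b* at 0.23. The 6 kept of 12 neural miRNAs, of which 1 was called lower by the likelihood ratio test, ranged from −2.19 for *bta-miR-9-3p* to 1.57 for *bta-miR-129* and *bta-miR-129-5p*, which have identical values in the table, with *bta-miR-9-5p* at 0.83, *bta-miR-128* at 0.05 and *bta-miR-138* at −0.44. Of the 7 miRNAs of lipid and energy metabolism, *bta-miR-107* missed a call by its size (log2 fold change −0.90, SE 0.23, FDR 0.0298) and was called lower without the 25 months library of steer 3 (−1.03, FDR 0.0379), *bta-miR-103*, with the same seed, was at −0.38, *bta-miR-33a*, encoded within the SREBF2 gene in mammals, was at 0.75 (FDR 0.0692) and *bta-miR-33b* at −0.15. *bta-miR-378*, *-378c* and *-378d* had log2 fold changes of −0.49, 0.19 and 0.76.

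**Figure D4:**
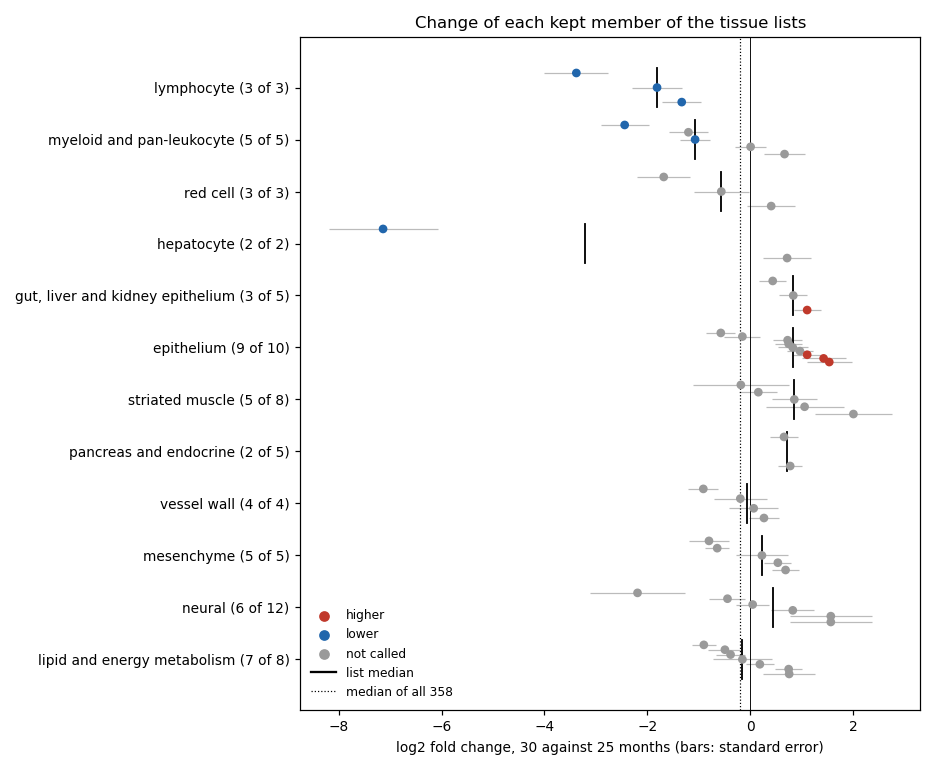
Log2 fold change at 30 against 25 months (x axis) of each kept member of 12 tissue lists (rows, with kept of listed members); bars are standard errors, black ticks list medians and the dotted line the median of all 358 miRNAs, −0.20. All 3 lymphocyte miRNAs are called lower, the gut and epithelial lists lie mostly above 0, and the 2 hepatocyte miRNAs lie on opposite sides.

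The calls were also grouped by seed. The 358 miRNAs have 275 different seeds, of which 45 are shared by at least 2 kept miRNAs. The 20 higher miRNAs have 19 seeds and the 36 lower ones 31, and 17 of the shared seeds hold a call. There were 0 seeds with calls in both directions. This says little, since it needs at least 2 calls in a seed, which only the seeds of the next sentence have. In 4 shared seeds at least 2 members were called lower, and in 1 at least 2 were called higher. These seeds are AUUGCAC (miR-25/92), ACAUUCA (miR-181), UAUAAUA (miR-374) and GUAAACA (miR-30) for the lower, and AGCACCA (miR-29) for the higher.

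The miR-25/92 family, of the miR-17-92 cluster of cell growth and its relatives, had 4 of 5 members lower, against 10.1% of all miRNAs. *bta-miR-363* was at 118, 105 and 120 CPM at 25 months and at 25.5, 16.6 and 10.3 CPM at 30 months, a mean of 3.76 steps, so no fold is given (FDR 0.00673). *bta-miR-32* was at 1616, 1670 and 3123 CPM, and then at 614, 491 and 462 CPM (log2 fold change −2.17, SE 0.41, FDR 0.0146). *bta-miR-92a* was at 12431, 10200 and 15136 CPM, and then at 5973, 3902 and 4728 CPM (log2 fold change −1.51, SE 0.28, FDR 0.0136). The groups were apart in these 3 and in *bta-miR-92b*, which had a log2 fold change of −1.59 (SE 0.30, FDR 0.0146). *bta-miR-25*, which has the seed of *bta-miR-92a*, was at 18540, 12075 and 17089 CPM, and then at 22881, 14670 and 18410 CPM, with overlapping groups (log2 fold change 0.10, SE 0.26, FDR 0.781). The 4 calls held without the 25 months library of steer 3, and that of *bta-miR-363* alone held without the 30 months library of steer 3.

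Relatives from the same clusters were mostly not called. *bta-miR-363* lies beside *bta-miR-20b*, which was at 67.7, 49.8 and 60.3 CPM and then at 17.1, 0.28 and 22.6 CPM (FDR 0.0708). In the cluster that RefSeq gives for *bta-miR-92a*, *bta-miR-20a*, *-19b*, *-19a*, *-17-5p* and *-18a* had log2 fold changes of −0.88, −0.93, −0.36, −0.33 and 0.04, and none was called. *bta-miR-93*, whose seed is that of *bta-miR-20a* and *bta-miR-20b*, was at 14204, 10623 and 11005 CPM, and then at 22640, 14728 and 19779 CPM (log2 fold change 0.54, FDR 0.102). The miR-17 family had a median of −0.97 over 6 members, with 0 calls by the quasi-likelihood test and 2 lower calls by DESeq2, limma-voom, the likelihood ratio test and without a filter.

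The miR-181 family, known for tuning antigen receptor signals in lymphocytes, had 2 of 4 members lower, the abundant ones, against 10.1% of all miRNAs. *bta-miR-181a* was at 1680, 1611 and 2476 CPM at 25 months and at 610, 507 and 457 CPM at 30 months (log2 fold change −2.01, SE 0.32, FDR 0.00901). *bta-miR-181b* was at 264, 244 and 300.5 CPM, and then at 114, 87.8 and 97.5 CPM (log2 fold change −1.58, SE 0.28, FDR 0.0118). The groups of both were apart, and both were called without any 1 of the 6 libraries except the 30 months library of steer 3, without which neither was. *bta-miR-181c* and *bta-miR-181d*, at 8.34 to 12.2 CPM at 25 months and at 0 to 6.77 CPM at 30 months, were not called (FDR 0.0885 and 0.135), but both were called lower by DESeq2 and the likelihood ratio test. *bta-miR-374a* and *bta-miR-374b* fell by 1.92 and 1.88 on the log2 scale (FDR 0.0194 and 0.0353), and neither was called without the 25 months library of steer 3 (FDR 0.0652 and 0.133). Counts of *bta-miR-181a*, *bta-miR-181b*, *bta-miR-374a*, *bta-miR-374b*, *bta-miR-92a* and *bta-miR-92b* were not whole in at least 1 FC library, so reads of near-identical miRNAs may be split between them.

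The miR-30 family, abundant in kidney, muscle and fat, had 2 of 6 members lower, against 10.1% of all miRNAs. *bta-miR-30b-5p* was at 332, 433 and 548 CPM at 25 months and at 126, 103 and 171 CPM at 30 months (log2 fold change −1.84, SE 0.39, FDR 0.0194). *bta-miR-30c* was at 636, 734 and 1137 CPM, and then at 216, 266 and 219 CPM (log2 fold change −1.99, SE 0.39, FDR 0.0153). *bta-miR-30d* was at 11039, 12694 and 12392 CPM, and then at 20731, 20791 and 18141 CPM (log2 fold change 0.59, SE 0.26, FDR 0.139). All 30 months values of *bta-miR-30d* lay above the 25 months values, the opposite of *bta-miR-30b-5p*, although the genes of the 2 are neighbours. *bta-miR-30a-5p*, which differs from *bta-miR-30d* at 1 of 24 positions, had a log2 fold change of 0.64 (FDR 0.150), and *bta-miR-30e-5p* −0.46. *bta-miR-30f*, close in sequence to *bta-miR-30c*, had −1.53 (FDR 0.0973). *bta-miR-30b-5p* and *bta-miR-30d* differ at 8 of 22 positions from the 5′ end, all after the seed. Without the 25 months library of steer 3 *bta-miR-30c* was called and *bta-miR-30b-5p* was not (FDR 0.0834), and without the 30 months library of steer 3 neither was.

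The miR-29 family, which targets collagen messages, had 2 of 4 kept members higher, against 5.59% of all miRNAs. *bta-miR-29c* was at 9219, 7369 and 4080 CPM at 25 months and at 16209, 17246 and 13041 CPM at 30 months (log2 fold change 1.11, SE 0.23, FDR 0.0179). *bta-miR-29d-3p*, which differs from it at 1 of 22 positions, was at 53.7, 36.0 and 29.2 CPM, and then at 128, 118 and 75.6 CPM (log2 fold change 1.32, SE 0.32, FDR 0.0265). Every 30 months value of the 2 was above every 25 months value. *bta-miR-29b*, encoded beside *bta-miR-29c*, was at 1630, 1911 and 2227 CPM, and then at 1296, 2072 and 1137 CPM (log2 fold change −0.56, SE 0.32, FDR 0.235), and *bta-miR-29a* had a log2 fold change of −0.43 (FDR 0.381). Without the 25 months library of steer 3 *bta-miR-29c* was still called, with a log2 fold change of 1.01, and *bta-miR-29d-3p* was not (FDR 0.0652). No member was called without the 25 months library of steer 2, without the 30 months library of steer 2 or 3, or with the 6 libraries of the 2 ages alone.

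The other families had at most 2 calls each, and several had none. In the family of miR-148 and miR-152, which includes repressors of DNA methyltransferase and is known in the liver, *bta-miR-152* was at 1086, 1077 and 472 CPM at 25 months and at 1760, 2174 and 2271 CPM at 30 months (log2 fold change 1.21, SE 0.27, FDR 0.0261). *bta-miR-148a* and *bta-miR-148b* had log2 fold changes of 0.96 (FDR 0.0261) and 0.76 (FDR 0.0509), so the 3 members were alike in direction. *bta-miR-222*, of a pair that curbs the cell cycle inhibitor p27, was at 988, 1267 and 579 CPM, and then at 388, 498 and 352 CPM (log2 fold change −1.26, SE 0.22, FDR 0.0118). *bta-miR-221*, its neighbour in the genome, was at 8348, 8003 and 4105 CPM, and then at 5948, 6501 and 6012 CPM, with overlapping groups (log2 fold change −0.21, SE 0.27, FDR 0.599). The 9 let-7 members, which promote differentiation, had 1 lower call, a share near the 10.1% of all miRNAs, for *bta-let-7g* (log2 fold change −1.63, FDR 0.0234), and the others ranged from −1.01 to 0.05. Of 8 miR-15/16 members, which restrain the cell cycle, *bta-miR-424-5p* was called lower (−1.65, FDR 0.0295), again a share near that of all miRNAs, while *bta-miR-16b*, at 116438, 85309 and 129309 CPM and then 149877, 84579 and 117513 CPM, was at −0.04. *bta-miR-10a* was called higher (1.14, FDR 0.0298) and *bta-miR-99a-5p* lower (−1.18, FDR 0.0261) in the list of miR-10, miR-99 and miR-100, which have 2 different seeds, ACCCUGU for *bta-miR-10a* and ACCCGUA for *bta-miR-99a-5p*, and *bta-miR-26a* was called lower (−1.5, FDR 0.0341) beside *bta-miR-26b* at −0.38. The single kept member of the miR-196 family, *bta-miR-196b*, was higher (1.58, FDR 0.0440). When the 25 months library of steer 3 was left out, *bta-miR-152* (0.97, FDR 0.0625), *bta-miR-10a* (0.91, FDR 0.103), *bta-miR-99a-5p* (−0.94, FDR 0.0834), *bta-miR-26a* (−1.06, FDR 0.114), *bta-miR-424-5p* (−1.76, FDR 0.0841) and *bta-miR-196b* (1.32, FDR 0.144) were not called. None of 5 members of the family of miR-130 and miR-301 was called (median 0.70), apart from 1 higher call at a mean of 50 CPM and 1 in steps, and none of 17 kept members of the imprinted DLK1-DIO3 cluster (median −0.18, but 0.36 at a mean of 50 CPM and 0.09 without the 30 months library of steer 3), against 15.6% of all miRNAs. In the large bovine family of miR-2284 and miR-2285, 2 of 28 kept members were called, both lower, a share near the 10.1% of all miRNAs. They are *bta-miR-2285bf*, at 512, 499 and 699 CPM and then 124, 142 and 126 CPM (log2 fold change −2.26, SE 0.33, FDR 0.00673), and *bta-miR-2285dc* (FDR 0.0353). *candidate-miR-6*, which differs from *bta-miR-2285bf* at 3 of 21 positions, was at 42.9, 44.1 and 58.8 CPM, and then at 5.65, 13.6 and 11.1 CPM (FDR 0.0136), and the counts of both were not whole in at least 1 FC library. *candidate-miR-6* and *bta-miR-2285dc* averaged 1.81 and 2.29 steps at 30 months, so no fold is given for them.

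**Figure D5:**
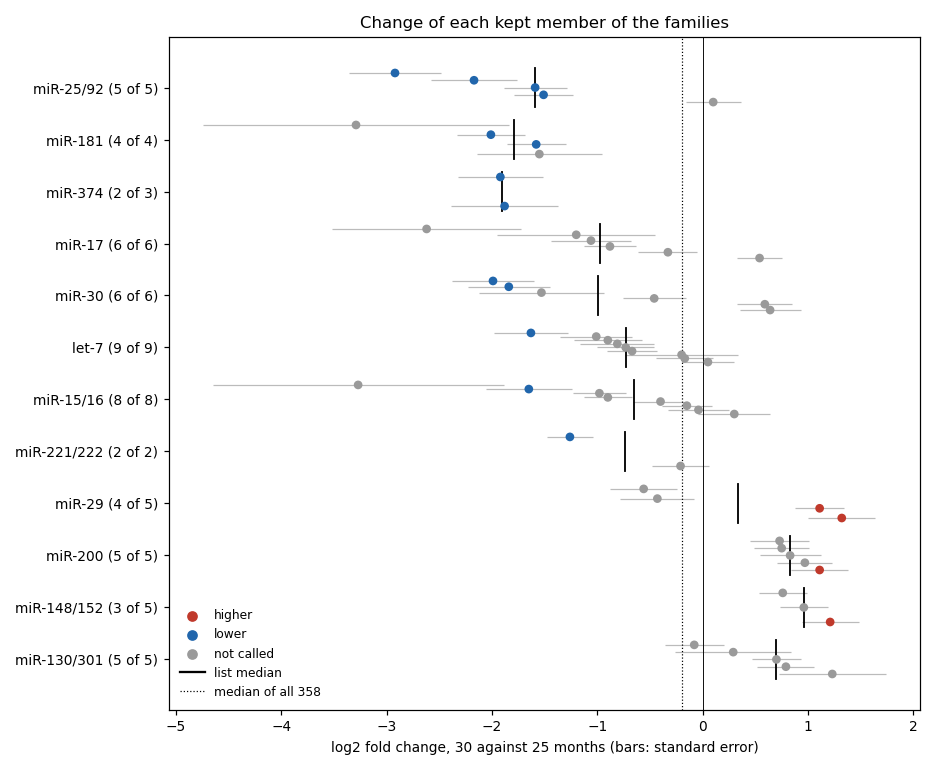
Log2 fold change at 30 against 25 months (x axis) of each kept member of 12 miRNA families (rows, with kept of listed members); bars are standard errors, black ticks family medians and the dotted line the median of all 358 miRNAs. In miR-25/92, 4 members are called lower and *bta-miR-25* lies at 0.10, miR-30 and miR-29 spread to both sides of 0, and miR-200 and the family of miR-148 and miR-152 lie above 0.

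The 2 arms of a hairpin, which are cut from the same precursor, were compared within hairpins. Both arms were kept for 30 hairpins, with both arms called in 1, 1 arm called in 8 and neither in 21, beside 15.6% of all miRNAs called. *bta-miR-6119-5p* and *bta-miR-6119-3p* both fell, by 1.29 and 1.45 on the log2 scale (FDR 0.0185 and 0.0240). *bta-miR-151-5p* was at 126, 119 and 196 CPM at 25 months and at 61.8, 9.68 and 49.96 CPM at 30 months (log2 fold change −2.15, SE 0.56, FDR 0.0326), while *bta-miR-151-3p* was at 2695, 2403 and 3364 CPM, and then at 5879, 4031 and 6227 CPM (log2 fold change 0.78, SE 0.24, FDR 0.0508). The groups of both arms were apart, in opposite directions. *bta-miR-345-3p* rose (log2 fold change 1.70, FDR 0.0254) beside *bta-miR-345-5p* at −0.48 (FDR 0.610). *bta-miR-21-3p* rose (1.32, FDR 0.0370), and the far more counted *bta-miR-21-5p* was at 0.10 (FDR 0.766). The difference between arms was not tested.

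The other called miRNAs belong to none of the families above. Higher at 30 months were *bta-miR-6529a* (log2 fold change 1.55, FDR 0.0261), *bta-miR-760-3p* (1.47, FDR 0.0261), *bta-miR-1307* (1.05, FDR 0.0353), *bta-miR-218* (1.29, FDR 0.0489), *bta-miR-330* (2.08, FDR 0.0459) and *bta-miR-2431-3p* (2.20, FDR 0.0324). For *bta-miR-6529a* the values were 448, 481 and 221 CPM, and then 1389, 993 and 1242 CPM, and at 20 months 1328, 372 and 972 CPM, so that the 20 and 30 months libraries overlapped. The same overlap with 20 months was seen for *bta-miR-760-3p*, *bta-miR-1307*, *bta-miR-330*, *bta-miR-218*, *bta-miR-345-3p* and *bta-miR-196b*. Lower at 30 months were *bta-miR-139* (−2.55, FDR 0.0106), *bta-miR-31* (−2.30, FDR 0.0254), *bta-miR-335* (−1.62, FDR 0.0353), *bta-miR-671* (FDR 0.0298, 3.47 steps at 30 months) and *bta-miR-197* (−1.01, FDR 0.0279). In steps, *bta-miR-671*, *bta-miR-197*, *bta-miR-330*, *bta-miR-2431-3p*, *bta-miR-196b* and *bta-miR-2285dc* lost their call. *bta-miR-139*, encoded within a phosphodiesterase gene in mammals, was at 116, 128 and 179 CPM, and then at 31.4, 26.3 and 23.7 CPM.

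Among the scarce miRNAs called lower, several were near or under a step at 30 months and no fold is given for them. *bta-miR-28*, a relative of miR-151-5p in mammals, was at 40.4, 46.9 and 86.3 CPM at 25 months and at 0, 7.47 and 0 CPM at 30 months (FDR 0.0320). *bta-miR-340* had 18 to 102 counts per library and then 0 in all 3 (FDR 0.0261), which at a floor of 3 counts per library allows up to 0.62 to 0.83 CPM, and up to several times more if a step is the smallest value that could be seen. *bta-miR-362-5p* was at 9.005, 6.61 and 16.6 CPM, and then at 0, 0 and 1.31 CPM (FDR 0.0261). *candidate-miR-11* was at 28.05, 34.1 and 31.4 CPM, and then at 7.39, 0.28 and 8.15 CPM (FDR 0.0419). In steps, *bta-miR-28* was still called and the other 3 were not.

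The change in FC was set against the change in EX of the same plasma samples for the 330 miRNAs kept in both fractions. The fit had steer as a block and did not pair the EX and FC libraries of a plasma sample. The interaction test of edgeR called 25 of them (7.58%), and 5 of the 54 FC calls kept in both (9.26%). Of these 5, *candidate-miR-40* rose from 471, 641 and 325 CPM to 3978, 7173 and 3490 CPM in EX (difference of log2 fold changes, EX minus FC, −1.28, SE 0.36, FDR 0.0403). *bta-miR-197* fell in EX from 956, 820 and 670 CPM to 189, 214.9 and 344 CPM (difference −1.38, SE 0.39, FDR 0.0403), so the rise was smaller and the fall larger there. The other 3, *bta-miR-2285dc*, *bta-miR-2431-3p* and *candidate-miR-6*, were at 0 CPM in all 3 EX libraries at 30 months, as were 20 of the 25. These 3 were at 0.41 to 41.5 CPM in EX at 25 months. No step was computed for EX, so it is not known whether such low values were resolved there at 30 months. For *bta-miR-150* (FDR 0.566), *bta-miR-142-3p* (0.953), *bta-miR-363* (0.702), *bta-miR-885* (0.283) and *bta-miR-141* (0.283) no difference between the fractions was detected. Without both libraries of steer 3 at 25 months 7 differences were called.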

How the data were processed

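Small RNA from the EX and FC fractions of plasma was sequenced from 3 steers at 3 ages. The submitters' processing notes name cutadapt 5.0, Trimmomatic 0.39, FastQC 0.12.1 and edgeR 4.0.16, and per the study reads were mapped to a cattle genome and counted per miRNA by the quantifier of miRDeep2 with default settings; what these settings do with reads shared by several miRNAs is not given in the sources used here. The authors deposited expected counts per miRNA, of which 11.2% to 18.3% per FC library at these ages are not whole, and CPM values, which are each count over the total of its library. In 4 FC libraries the lower part of the count column was offset by a row against CPM, so these counts were recomputed from CPM times the total. The unassigned columns numbered 0.

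Counts were rounded, kept at CPM > 5 in at least 3 of 9 FC libraries, scaled by TMM and fitted in edgeR 4.0.16 (R 4.3.3) by quasi-likelihood over the 9 FC libraries with age and steer, and p values were adjusted by Benjamini and Hochberg over all miRNAs tested. The SE was taken as |log2 fold change| over √F. The interaction used all 18 libraries. DESeq2 1.42.0, limma 3.58.1, other filters and scalings and leave-outs were alternatives. The steer numbers pair the samples because each steer was sampled at each age. Residuals of same-steer libraries correlated at 0.0282 to 0.274, and of different steers at −0.258 to 0.101. On simulated counts for this comparison, with 358 miRNAs of which 200 changed, 63.8% were recovered at a log2 change of 1.5 and 81.1% at 2. The share changed there was larger than the 15.6% called here, and the simulated counts had no steps and no steer effect. These rates therefore do not give the recovery in the data themselves. Depth limits precision through 3 counts as the floor; the floor covers counting error only.

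Named were the 8 higher and 8 lower miRNAs with the smallest FDR, all kept members of the tissue lists, the called members of families, the 10 most abundant miRNAs at 25 months, and the 5 miRNAs with the smallest FDR between fractions, where 5 tied for the last place and all are named; the remaining called miRNAs, cluster neighbours and other arms were added after their values were seen. The comparison, the lists and the tests were chosen with earlier results of these data known. Sequences are from the deposited table, and RefSeq (ARS-UCD2.0) gave gene neighbours within 10000 bases, with 323 of 358 miRNAs matched. Python 3.11.15, pandas 2.3.3, scipy 1.17.1 and matplotlib 3.10.9 were used.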

Additional observations from a re-analysis of the deposited data

Results flagged for a closer look

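For 25 of 330 miRNAs the interaction test of edgeR called a difference between the fractions in the change from 25 to 30 months. The call was made at FDR under 0.05, and 64 had an unadjusted p under 0.05. Of the 25, 20 were at 0 CPM in all 3 EX libraries at 30 months. Those libraries had a count for 258 to 296 miRNAs, against 381 to 418 in EX at 25 months. The smallest FDR were those of *bta-miR-1249* (FDR 0.00114) and of *bta-miR-2285f*, *bta-miR-2285am-5p* and *bta-miR-2285q* (FDR 0.00766 each). *bta-miR-184*, *bta-miR-2285dc*, *bta-miR-2431-3p*, *bta-miR-2483-3p* and *bta-miR-99a-3p* followed at an equal FDR of 0.0137. All 9 were at 0 CPM in the 3 EX libraries at 30 months, where 3 counts are 1.51 to 3.03 CPM, so no size of the difference is given. No step was computed for EX, so the smallest value that could be seen there may be higher. Loss of low counts in EX was not tested. In FC, *bta-miR-1249* was at 107.2, 101 and 46.0 CPM at 25 months and at 41.7, 56.4 and 30.8 CPM at 30 months. Of the miRNAs called in FC, *candidate-miR-6* (FDR 0.0141, also at 0 CPM in EX at 30 months), *bta-miR-197* (FDR 0.0403) and *candidate-miR-40* (FDR 0.0403) were called here as well. With 3 libraries per group, single libraries were not tested as outliers.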

How the results depend on the processing

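With 56 calls in FC (20 higher, 36 lower) as reported, the number stayed within a factor of 1.5 with DESeq2 size factors (59), library totals (46), DESeq2 (79), the likelihood ratio test (80), limma-voom (75), CPM > 1 in 3 libraries (62), no filter (72), a mean of 50 CPM (54), thinning (61), and 30 months counts in steps or in finer steps (61 each, added after seeing the data). Without the replicate block it was 60, of which 54 are among the 56, so the pairing by steer moved few calls. Only the lower calls moved further, to 55 with the likelihood ratio test and 56 without a filter. With the 6 libraries of the 2 ages alone, where the spread rests on fewer libraries, there were 30 (11 higher, 19 lower). The reason for this drop was not tested. With the rows as deposited (added) there were 21 (3 higher, 18 lower), of which 17 are among the 56. Leaving out 1 steer gave 1 to 54 calls (1 to 18 higher, 0 to 36 lower). The 0 lower calls came without steer 1 or 3, where 98 and 102 miRNAs had an unadjusted p under 0.05. Leaving out 1 library gave 9 to 55 calls (3 to 18 higher, 6 to 37 lower). The 25 interaction calls became 26 without the replicate block, 25 with DESeq2 size factors, 41 with the likelihood ratio test, 0 to 10 without 1 steer (0 without steer 1 or 3, with 38 and 69 at unadjusted p under 0.05) and 7 without both libraries of steer 3 at 25 months (added). No called miRNA changed sign under these alternatives, apart from the deposited rows, where the median of the hepatocyte list, which holds the called *bta-miR-885*, turned from −3.21 to 1.94 and the signs of the other calls were not compared. The median of the lipid and energy list turned from −0.15 to 0.11 without steer 2 (−0.24 to 0.11 over the steers left out), to 0.10 and 0.08 without the 25 or 30 months library of steer 2, and to 0.32 in steps. The vessel wall median (−0.06) ranged from −0.92 to 0.39 without 1 steer or library and was 0.01 with library totals, the red cell median (−0.56) was 0.18 without the 25 months library of steer 1, the mesenchyme median (0.23) was −0.14 without that of steer 3, and with the rows as deposited the neural median (0.44) was −0.21 and the pancreas and endocrine median (0.72) was −0.98. Depth limits the scarce miRNAs at 30 months, where 9 lower calls had a mean under 5 steps, and in steps 10 of the 56 calls were lost.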
